A study of Mus musculus with 6 samples.

Results

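The serum amyloid A genes of the mouse are Saa1, Saa2, Saa3 and Saa4, which lie side by side on chromosome 7. These 4 of the 55385 genes in the deposited count table were chosen by their counts in the sham and VSG livers, with the difference between the groups already known. Their values are therefore a description, no p is given for them, and that they stand past a threshold is stated below only as part of that choice. The libraries came from livers of wild-type C57BL/6 male mice that were 6 to 8 weeks old when high-fat diet (HFD) feeding began. After 10 weeks of HFD, 3 mice had a vertical sleeve gastrectomy (VSG), which removes most of the stomach, and 3 had a sham operation, and all 6 then stayed on HFD for 12 weeks. Poly(A) RNA from about 40 mg of liver of each mouse gave 1 strand-specific library, named sham 1 to 3 and VSG 4 to 6. No lean, unoperated or weight-matched mice were among the libraries used here.

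Serum amyloid A proteins are small apolipoproteins that travel in blood on high-density lipoprotein (HDL). Saa1 and Saa2 encode the acute phase forms, which hepatocytes secrete when interleukin 1, interleukin 6 and tumor necrosis factor act on them through NF-kB, C/EBP factors and STAT3. In mice Saa3 is also made outside hepatocytes, by macrophages and adipocytes among other cells, whereas Saa4 encodes the constitutive form. Acute phase serum amyloid A binds cholesterol and retinol, acts on leukocyte receptors such as the formyl peptide receptor and Toll-like receptors, and is the precursor of the fibrils of AA amyloidosis.

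The tissue label was checked against markers. All 8 hepatocyte markers were present, summing to between 53830 and 104400 CPM per library (counts scaled to library size with TMM factors, which correct for genes that take a large share of a library). Total counts ran from 22804397 to 24191778 per library. Over the 14454 genes with enough counts for edgeR's quasi-likelihood test, 981 genes (6.79%) were higher and 1137 were lower after VSG at a Benjamini-Hochberg adjusted p under 0.05, the threshold used throughout, which together makes 14.7% in either direction. The count of 2118 genes fell to 159 without sham 3, 210 without VSG 6, 797 without sham 2, 1076 without VSG 4 and 1214 without sham 1. Scaled by total counts, the calls were 486 higher and 1512 lower, and the median log2 fold change of all genes shifted by -0.14.

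The 4 genes span 42.3 kb of chromosome 7 (GRCm38, the assembly also named mm10). Saa3 (46711998 to 46715700), Saa4 (46727998 to 46732603) and Saa1 (46740497 to 46742980) are on the minus strand, and Saa2 (46751790 to 46754313) is on the plus strand. Saa1 and Saa2 are thus transcribed away from each other, with start sites 8.81 kb apart. The pseudogene Saa-ps lies between Saa4 and Saa1. The upstream sequences of the 4 genes are shown because Saa1 and Saa2 are nearly identical there and the other members are not. They are the first 207 bases of the RefSeq promoter windows (GRCm38.p6), positions -250 to -44 from the RefSeq start site, which end before the first transcribed base of GENCODE M21 and of RefSeq in all 4 genes. They cover chr7:46743024-46743230 for Saa1, chr7:46751583-46751789 for Saa2, chr7:46715720-46715926 for Saa3 and chr7:46732647-46732853 for Saa4, and each is written 5′ to 3′ on its gene's own strand. Capitals mark matches, on either strand, to the C/EBP letters TTGCNNAA or the NF-kB letters GGNNTTTCC, where N is any base.
Saa1: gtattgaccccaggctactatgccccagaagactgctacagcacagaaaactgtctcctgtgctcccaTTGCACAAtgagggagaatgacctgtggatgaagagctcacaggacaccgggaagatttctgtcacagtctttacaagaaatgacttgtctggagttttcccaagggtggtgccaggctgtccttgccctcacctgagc
Saa2: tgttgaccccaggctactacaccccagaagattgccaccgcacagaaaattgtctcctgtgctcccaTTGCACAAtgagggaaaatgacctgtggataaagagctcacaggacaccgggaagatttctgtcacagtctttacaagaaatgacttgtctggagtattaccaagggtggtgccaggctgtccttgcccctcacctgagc
Saa3: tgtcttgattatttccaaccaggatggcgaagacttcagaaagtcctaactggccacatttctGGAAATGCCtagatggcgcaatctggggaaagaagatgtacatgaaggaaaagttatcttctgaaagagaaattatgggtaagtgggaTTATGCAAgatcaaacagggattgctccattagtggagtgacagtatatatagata
Saa4: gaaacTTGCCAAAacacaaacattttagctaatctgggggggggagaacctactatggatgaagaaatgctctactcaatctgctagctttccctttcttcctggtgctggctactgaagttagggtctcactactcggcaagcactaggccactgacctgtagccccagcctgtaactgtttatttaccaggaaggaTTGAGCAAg

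Over the whole windows of 300 bases, 250 before and 50 after the start, the Saa1 and Saa2 promoters were identical at 95.3% of aligned positions, with 12 mismatches and 2 gap positions. Saa3 shared 50.9% with Saa1, and Saa4 shared 46.8% with Saa1 and 43.3% with Saa3. The C/EBP letters matched once in Saa1 (-182 to -175) and at the corresponding place in Saa2 (-183 to -176). They matched once in Saa3 (-99 to -92) and at 2 places in Saa4 (-245 to -238 and -52 to -45). The NF-kB letters matched only in Saa3 (-187 to -179), and no match overlapped another. Only exact matches were counted, so a site that differs from these letters in a base or in length was missed. Among all 32851 RefSeq promoter windows of mouse, 10.8% held the C/EBP letters and 5.82% the NF-kB letters. The STAT3 letters TTCNNNGAA, found in 8.30% of all windows, and the TATA box letters TATAAA, found in 13.6%, had no match in the 4 windows.

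The transcripts of Saa1 and Saa2 are nearly as alike as their promoters. Their coding transcripts of 4 exons (609 and 606 bases) were identical at 93.9% of aligned positions, compared with 62.2% for Saa1 and Saa3. Of the 560 windows of 50 bases in the Saa1 transcript, 83 also occurred in Saa2 or Saa3, and 74 of the 557 windows of Saa2 occurred in Saa1. No window of 100 bases was shared with another gene. How the authors' counting treated reads that fit more than one place was not stated, so the split of counts between Saa1 and Saa2 is less certain than their sum.

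Saa1, an acute phase form, was far higher in each VSG library than in any sham library. Its counts were 4837, 1813 and 3477 in sham 1, 2 and 3, and 255073, 61061 and 186129 in VSG 4, 5 and 6. These equal 178, 82.8 and 132 CPM in the sham livers, and 11530, 2607 and 8870 CPM in the VSG livers. The groups did not overlap, and the lowest VSG library stood 14.6-fold above the highest sham library. Saa1 averaged 131 ± 47.9 CPM in the sham group (SD, n = 3) and 7668 ± 4580 CPM in the VSG group, a log2 fold change of 5.87 (SE 0.689). By count, Saa1 ranked at position 647, 1846 and 1017 among all genes of the sham libraries and at 12, 43 and 15 in the VSG libraries.

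Saa2, the other acute phase form, had the largest difference of the family. Its counts were 2938, 1065 and 2081 in sham 1, 2 and 3, and 263363, 48469 and 169030 in VSG 4, 5 and 6, which equal 108, 48.6 and 79.0 CPM against 11900, 2070 and 8055 CPM. As with Saa1, VSG 4 was highest and VSG 5 lowest among the VSG libraries, sham 1 was highest and sham 2 lowest among the sham libraries, and the groups did not overlap. Saa2 averaged 78.7 ± 29.9 CPM in the sham group and 7342 ± 4955 CPM in the VSG group (SD, n = 3 each), a log2 fold change of 6.54 (SE 0.788). When the counts of Saa1 and Saa2 were summed, so that their split had no part in the value, the log2 fold change was 6.16 (SE 0.750).

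Saa3, the form also made by macrophages and adipocytes, was the least abundant member in every library. Its counts were 170, 87 and 67 in sham 1, 2 and 3, and 5168, 1073 and 1931 in VSG 4, 5 and 6, equal to 6.27, 3.97 and 2.54 CPM against 234, 45.8 and 92.0 CPM. Again VSG 4 was highest and VSG 5 lowest, and the lowest VSG library was 7.31-fold above the highest sham library. Saa3 averaged 4.26 ± 1.88 CPM in the sham group and 124 ± 97.8 CPM in the VSG group (SD, n = 3 each), with a log2 fold change of 4.86 (SE 0.699). This value rested in part on VSG 4, without which it was 4.01 (SE 0.436).

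Saa4, the constitutive form, differed least. Its counts were 7427, 10817 and 9178 in sham 1, 2 and 3, and 27574, 23323 and 36974 in VSG 4, 5 and 6, equal to 274, 494 and 348 CPM against 1246, 996 and 1762 CPM. The groups did not overlap, but the order of the libraries was another one: VSG 6 was the highest VSG library, and sham 2, the lowest sham library for Saa1 and Saa2, was the highest for Saa4. Saa4 averaged 372 ± 112 CPM in the sham group and 1335 ± 391 CPM in the VSG group (SD, n = 3 each), with a log2 fold change of 1.84 (SE 0.306). The lowest VSG library was 2.02-fold above the highest sham library.

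All 4 genes passed the filter on low counts, were above the threshold in the direction of higher levels after VSG, where 6.79% of all tested genes stood, and had all VSG libraries above all sham libraries, as 19.8% of tested genes did. Since these counts chose the genes, nothing is read from this. The spread among the VSG mice was wide for the 2 acute phase genes and Saa3. The highest VSG library exceeded the lowest by 4.42-fold for Saa1, 5.75-fold for Saa2 and 5.10-fold for Saa3, against 1.77-fold for Saa4. Among the sham libraries the same ratio lay between 1.80 for Saa4 and 2.47 for Saa3. The pseudogene Saa-ps had no count in the sham libraries and 1, 0 and 5 counts in VSG 4, 5 and 6, of which only VSG 6 exceeds the floor of 3 counts that counting error sets.

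**Figure D1:**
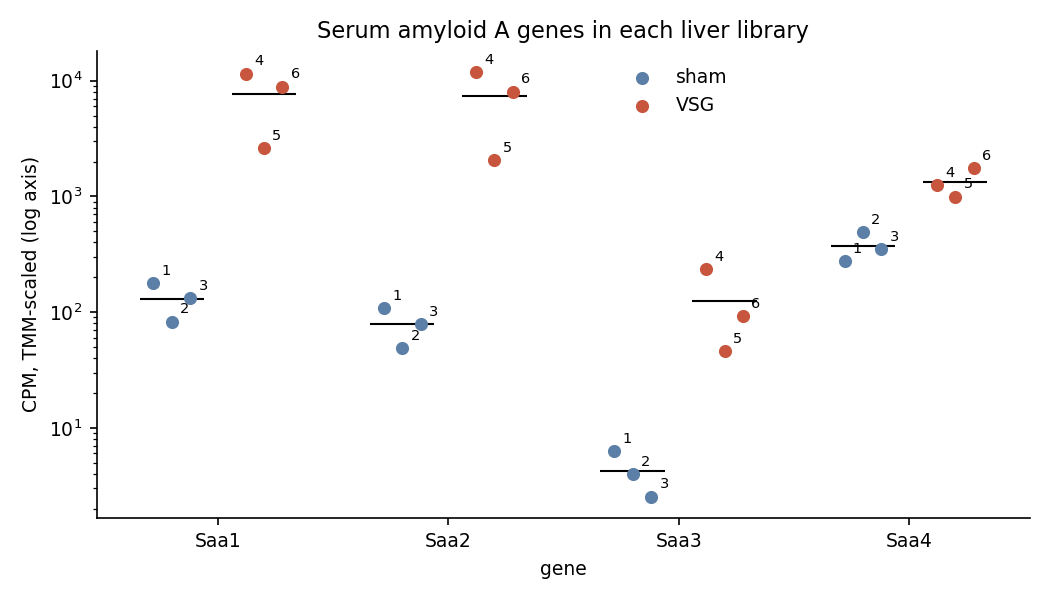
CPM (log axis) of Saa1, Saa2, Saa3 and Saa4 in each of the 6 liver libraries, with the library number beside each point and the group mean as a black line. The sham and VSG points of each gene do not overlap, and VSG 5 is the lowest VSG library for all 4 genes.

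The family as a whole took 0.0650%, 0.0582% and 0.0612% of all gene counts in sham 1, 2 and 3, and 2.42%, 0.570% and 1.69% in VSG 4, 5 and 6. The sham livers were thus close to each other, 0.0614% ± 0.00341 (SD, n = 3), although Saa2 alone differed up to 2.23-fold among them. The makeup of the family differed between the groups. Saa4 held 48.3%, 78.5% and 62.0% of the family's counts in sham 1, 2 and 3 but 5.0%, 17.4% and 9.38% in VSG 4, 5 and 6. Saa1 held 22.7% ± 9.17 in sham and 46.4% ± 0.802 in VSG livers, and Saa2 13.6% ± 5.70 and 42.3% ± 5.82. Saa3 held at most 1.11% of the family in any library.

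**Figure D2:**
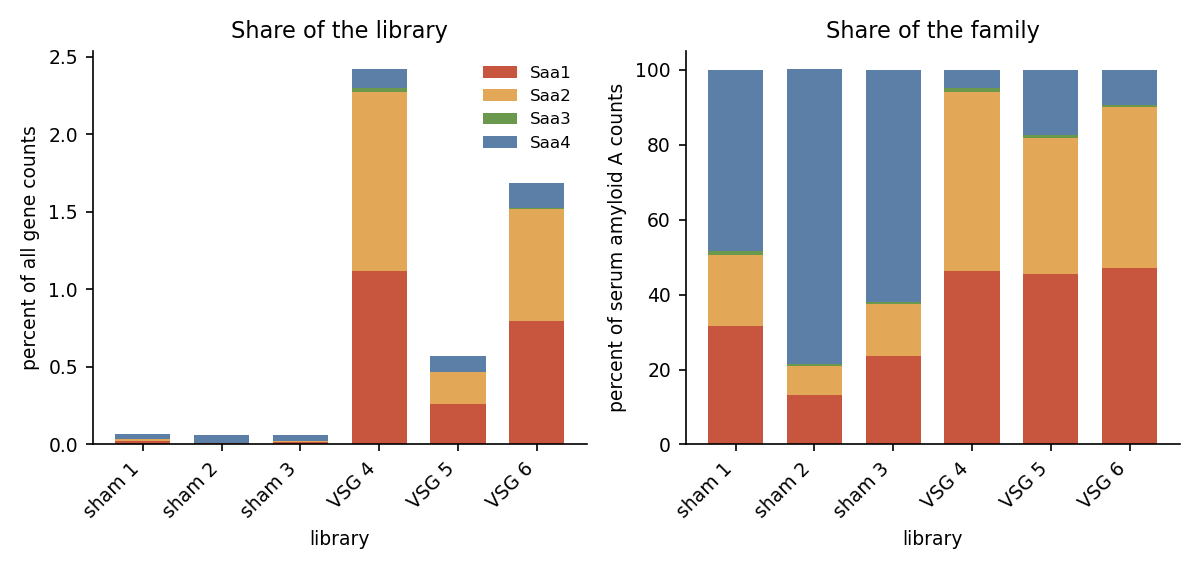
Left, the percent of all gene counts that fell on each serum amyloid A gene in each library, stacked. Right, the percent of the family's counts that each gene held. The stacks reach 0.0650% or less in the sham libraries and between 0.570% and 2.42% in the VSG libraries, and the part of Saa4 is larger in every sham library (48.3% or more) than in any VSG library (17.4% or less).

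The ratio of Saa1 to Saa2 counts was nearly constant in sham livers, at 1.65, 1.70 and 1.67 in sham 1, 2 and 3, and was 0.969, 1.26 and 1.10 in VSG 4, 5 and 6. The ratio was lower in every VSG library than in any sham library. Within both groups, the library with the more Saa1 and Saa2 counts had the lower ratio, without exception among the 6 libraries. Saa3 counts amounted to 2.19%, 3.02% and 1.21% of the summed Saa1 and Saa2 counts in sham 1, 2 and 3, against 0.997%, 0.980% and 0.544% in VSG 4, 5 and 6, so that Saa3 was lower relative to the acute phase pair in all VSG libraries.

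Levels were compared between the genes per length, as FPKM (CPM divided by the gene's summed exon length in kb). In sham livers the order was Saa4 (178 ± 53.4 FPKM), Saa1 (52.9 ± 19.3), Saa2 (31.2 ± 11.9) and Saa3 (1.64 ± 0.722), the same in all 3 libraries. The libraries' values of Saa1, from 33.4 to 72.0 FPKM, overlapped those of Saa2, from 19.3 to 43.0 FPKM, while Saa4 and Saa3 stood apart from both. In VSG livers the order was Saa1 (3095 ± 1848 FPKM), Saa2 (2916 ± 1968), Saa4 (637 ± 187) and Saa3 (47.5 ± 37.5). The first 2 were within their spread and were reversed in VSG 4, and the lowest Saa2 value (822 FPKM in VSG 5) was under the highest Saa4 value (842 FPKM in VSG 6), although Saa2 was above Saa4 within each VSG library. The summed exon lengths of 2478 bases for Saa1 and 2518 for Saa2 include long transcripts with a retained intron. Divided by the coding transcript instead, a choice made after seeing the data, the sham means were 215 ± 78.6 FPKM for Saa1, 178 ± 53.4 for Saa4, 130 ± 49.3 for Saa2 and 7.68 ± 3.39 for Saa3. Saa4 was then highest in 1 sham library, sham 2, in place of 3, so the place of Saa4 in the order of the sham livers depends on the length used. In the VSG livers the order was the same with both lengths.

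Neutrophil markers and some macrophage markers moved with the serum amyloid A genes. The summed level of 14 neutrophil markers was 23.4, 7.81 and 11.4 CPM in sham 1, 2 and 3 and 1942, 168 and 906 CPM in VSG 4, 5 and 6, which is the order of the libraries for Saa1 and Saa2 in both groups. All 14 neutrophil markers passed the threshold as higher, among them S100a8 and Mpo, and none was at 0 in all libraries. Most of the 14 had fewer than 10 counts in at least 1 sham library and passed the filter on low counts only through the VSG libraries, where they were high (Mpo had 15, 0 and 1 counts in sham 1, 2 and 3), and with a minimum of 10 counts in every library 3 could be tested and 3 were higher. The count of 14 was 1 without sham 3 or without VSG 6, 2 without sham 2, 9 without sham 1 and 13 without VSG 4, and it was 4 under limma-voom. The 14 macrophage markers summed to 1264, 562 and 853 CPM in sham 1, 2 and 3 and to 3207, 1127 and 2018 CPM in VSG 4, 5 and 6, so that sham 1 was above VSG 5. Within each group this sum also had the order of Saa1. That order held in both groups for 10 of 14 macrophage and 9 of 14 neutrophil markers, and for 10.6% of all tested genes. Of the 14 macrophage markers, 4 rose (Clec4f, Vsig4, Marco and Timd4, markers of Kupffer cells), where 6.79% of all tested genes did. The other 10 were not called, among them Cd5l (adjusted p 0.188), C1qa (0.186), Adgre1 (0.308) and Cd68 (0.795). Trem2 was lower on average (log2 fold change -1.40, adjusted p 0.150). Without VSG 4, 2 of the 14 rose, and 0 passed the threshold without sham 2, without sham 3 or without VSG 6. The 8 hepatocyte markers summed to 69270, 104400 and 70830 CPM in sham 1, 2 and 3 against 53830, 81280 and 80090 CPM in VSG 4, 5 and 6. Most of this sum was Alb, at 50650, 81770 and 51790 CPM in sham 1, 2 and 3 and 35790, 57580 and 56380 CPM in VSG 4, 5 and 6. The 8 markers had 0 calls by edgeR, against 3 by DESeq2 and 1 without VSG 5, without sham 2 or with a minimum of 10 counts in every library. At an unadjusted p under 0.05, 1 was higher (Serpina1a) and 2 were lower (Ttr and Ass1), each without overlap between the groups. Of the 6 adipocyte markers, Adipoq, Lep, Plin1 and Retn had at most 2 counts in any library, with Lep at 0 in all 6, Cfd had 2, 66 and 42 counts in sham 1, 2 and 3 and 0, 4 and 4 in VSG 4, 5 and 6, and Fabp4, which endothelial cells and macrophages also make, was at 16.6 to 26.5 CPM in every library (adjusted p 0.429). The 8 markers of stellate cells and fibroblasts summed to 951, 636 and 997 CPM in sham 1, 2 and 3 and to 307, 611 and 355 CPM in VSG 4, 5 and 6, and 1 of them passed the threshold, lower, which none did without sham 1, sham 3 or VSG 6 and 6 did under DESeq2. This sum ran opposite to the serum amyloid A genes between the groups. By edgeR, 0 of 6 endothelial markers were called (1 at an unadjusted p under 0.05, 0 by DESeq2) and 0 of 7 lymphocyte markers (0 at an unadjusted p under 0.05, 0 by DESeq2, 1 without VSG 5). Of 7 markers of cholangiocytes and intestinal epithelium, 1 was higher and 1 lower, and the higher one was lost under limma-voom and without sham 1, sham 2, sham 3 or VSG 6, while 2 were lower without VSG 5. In whole liver, more cells of a type and more RNA per cell cannot be told apart, and the part of these cells in the serum amyloid A levels was not tested.

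**Figure D3:**
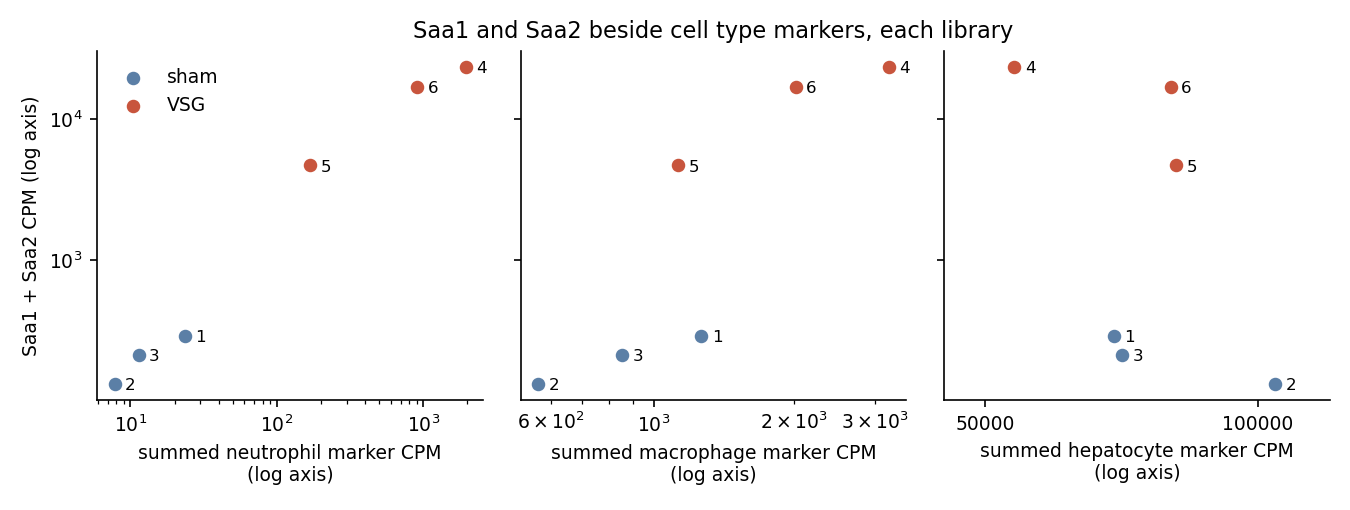
The sum of Saa1 and Saa2 CPM (log axis) against the summed CPM of neutrophil, macrophage and hepatocyte markers (log axes) in each library, with the library number beside each point. The neutrophil marker sum runs from 7.81 CPM in sham 2 to 1942 CPM in VSG 4 in the same order as Saa1 and Saa2. The macrophage marker sum has that order within each group, but sham 1 is above VSG 5. The hepatocyte marker sums, of which Alb is the largest part, overlap between the groups.

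Genes that act before and after serum amyloid A were then examined in 9 lists of 112 genes, of which 104 could be tested. In these lists 32 genes were higher and 5 were lower after VSG, where 6.79% of all tested genes were higher and 7.87% lower. The median log2 fold change was 0.45, against 0.03 over all genes tested. The total of 37 fell to 3 without sham 3, 7 without VSG 6 and 17 without sham 2, and was 54 without VSG 5. The plot of pathway genes by list shows the log2 fold change of each tested gene as an unnamed point.

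**Figure D4:**
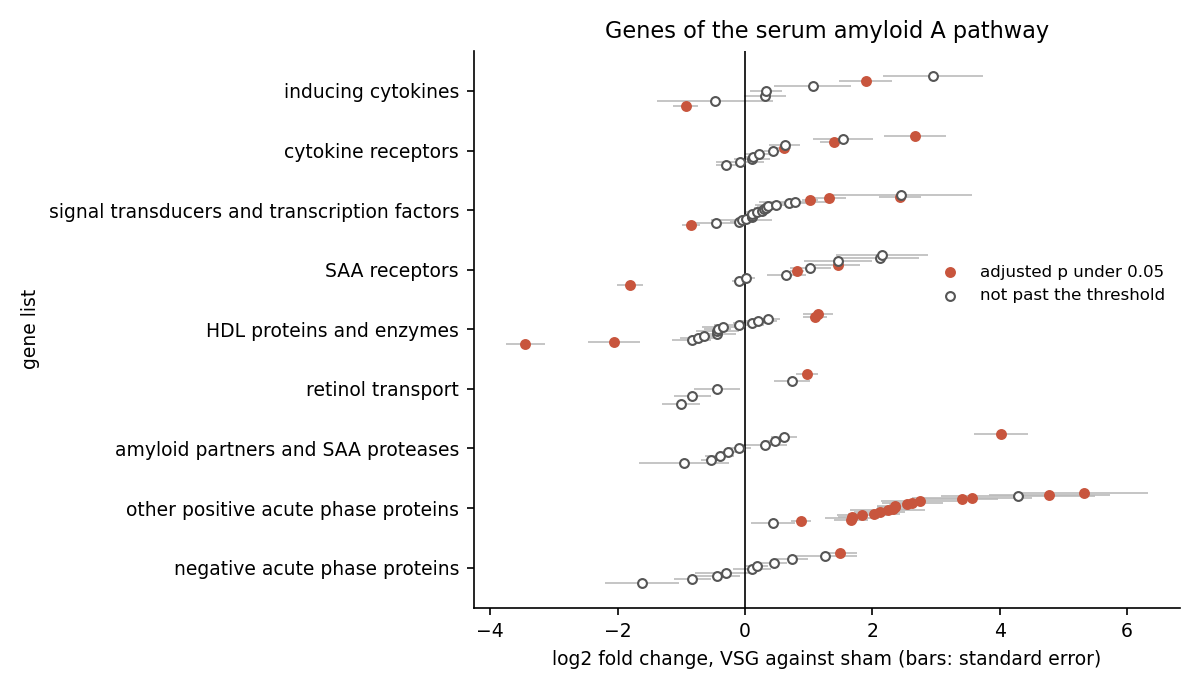
Log2 fold change (VSG against sham) of each tested gene of the 9 lists, with its standard error as a grey bar, in red where the adjusted p is under 0.05 and open where it is not. The other positive acute phase proteins have 18 of 20 genes in red, all higher, while the remaining lists have between 1 and 4 in red.

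Of 12 listed cytokines that induce or antagonize serum amyloid A induction, 7 could be tested in liver, of which 1 rose and 1 fell, against 14.7% of all tested genes in either direction. Il1b, which encodes interleukin 1 beta, was at 5.72, 2.42 and 2.77 CPM in sham 1, 2 and 3 and at 14.96, 8.20 and 17.8 CPM in VSG 4, 5 and 6, with all VSG libraries above all sham libraries (log2 fold change 1.90, SE 0.417, adjusted p 0.0314). Ctf1, which encodes cardiotrophin 1 of the interleukin 6 family, fell by 0.93 on the log2 scale (adjusted p 0.0268). Il6 itself had 1, 3 and 0 counts in sham 1, 2 and 3 and 3, 5 and 1 counts in VSG 4, 5 and 6, too few to be tested. Tnf had a log2 fold change of 1.06 (adjusted p 0.258), and its groups overlapped. The value rested on VSG 4, at 3.03 CPM against 0.769 and 0.953 CPM in VSG 5 and 6, and was 0.19 without it (adjusted p 0.813). Il1rn, which encodes the interleukin 1 receptor antagonist and is mentioned after its values were seen, was at 28.6, 15.9 and 18.5 CPM in sham 1, 2 and 3 and at 324, 30.1 and 136 CPM in VSG 4, 5 and 6, without overlap. Its log2 fold change of 2.96 (SE 0.786) missed the threshold, with an adjusted p of 0.0506. The list had 3 calls under DESeq2, with total counts or with no filter beyond 1 count, and 4 without VSG 5. Neither call of this list held without sham 2, sham 3, VSG 4 or VSG 6. Il1b is also a gene of leukocytes, whose markers moved as given above, and their part in its level was not tested.

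Of the 11 receptor genes tested, 3 rose and none fell, where 6.79% of all tested genes were higher and 7.87% lower. Il1r1, the signalling receptor of interleukin 1, stood at 56.2, 90.4 and 79.97 CPM in sham 1, 2 and 3 and at 800.2, 205 and 439 CPM in VSG 4, 5 and 6 (log2 fold change 2.67, SE 0.492, adjusted p 0.0212). The highest value was again that of VSG 4 and the lowest of the VSG group that of VSG 5. Osmr, the receptor of oncostatin M, had a log2 fold change of 1.39 (adjusted p 0.0150) and Il6st, which encodes gp130, the shared signalling subunit of the interleukin 6 family, one of 0.61 (adjusted p 0.0218). The count of 3 was 0 without sham 3 or VSG 6 and 1 without sham 1 or sham 2, it was 2 with scaling by total counts, and it was 6 without VSG 5.

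Of 20 signal transducers and transcription factors, 3 rose and 1 fell after VSG, where 6.79% of all tested genes were higher and 7.87% lower. Stat3, the factor that gp130 activates, was at 130, 131 and 117 CPM in sham 1, 2 and 3 and at 255, 231 and 283 CPM in VSG 4, 5 and 6, with a log2 fold change of 1.02 (SE 0.124, adjusted p 0.00809). The 3 VSG mice lay close together for Stat3, unlike for Saa1 and Saa2. Socs3, a feedback inhibitor that STAT3 induces, was at 8.89, 4.38 and 6.19 CPM in sham 1, 2 and 3 and at 48.3, 25.8 and 31.7 CPM in VSG 4, 5 and 6 (log2 fold change 2.44, SE 0.328, adjusted p 0.0104). Nfkbiz, an NF-kB cofactor, had a log2 fold change of 1.32 (adjusted p 0.0236). No call of this list held without sham 3, where the adjusted p of Stat3 was 0.0558 and that of Socs3 0.0641, and 1 held without VSG 6.

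Of the C/EBP and NF-kB factors, the 4 described here did not pass the threshold, unlike Stat3. Cebpb had a log2 fold change of -0.45 (adjusted p 0.459) and Cebpd one of -0.05 (adjusted p 0.947), and both signs turned without sham 2, the library with the most of each, to 0.12 and 0.52. The sign for Cebpd also turned without VSG 5, to 0.25. Nfkb1 had a log2 fold change of 0.33 (SE 0.188, adjusted p 0.261) and Rela one of 0.02 (SE 0.0979, adjusted p 0.910), which was -0.12 with scaling by total counts. These are levels of transcripts, and the activity of the factors was not measured.

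Among the 10 receptors and binding partners of serum amyloid A that were tested, 2 rose and 1 fell, against 14.7% of all tested genes in either direction. Cd36, a scavenger receptor and fatty acid transporter, was at 433, 518 and 516 CPM in sham 1, 2 and 3 and at 181, 120.4 and 120.1 CPM in VSG 4, 5 and 6 (log2 fold change -1.80, SE 0.204, adjusted p 0.00732). This fall was past the threshold in all 12 alternatives. Selenos, which encodes the selenoprotein of the endoplasmic reticulum that binds serum amyloid A, had a log2 fold change of 0.81 (adjusted p 0.0101). Ager, the receptor for advanced glycation end products, had one of 1.46 (adjusted p 0.0396) at under 1 CPM in every library, with 8, 5 and 5 counts in sham 1, 2 and 3. This call was lost in 8 of 11 alternatives, among them DESeq2 (adjusted p 0.0655), total counts (0.0648), no filter beyond 1 count (0.0877) and the omission of any library but VSG 5, with adjusted p-values up to 0.160. The leukocyte receptors were higher on average but not past the threshold. Fpr2, the formyl peptide receptor of serum amyloid A, had a log2 fold change of 2.15 (SE 0.726, adjusted p 0.0910), and Tlr2 of 1.46 (adjusted p 0.110), and both overlapped between the groups, since VSG 5 was below sham 1. Both passed under DESeq2 (adjusted p 0.0109 and 0.0272) and without VSG 5 (0.0243 and 0.0272), and Fpr2 also with no filter beyond 1 count (0.047). Without VSG 4 their log2 fold changes were 1.32 (adjusted p 0.215) and 0.84 (adjusted p 0.259), and without sham 1 that of Fpr2 was 2.75 (adjusted p 0.0942). Tlr4 had a log2 fold change of 0.65 (adjusted p 0.182), and Scarb1, the HDL receptor, one of -0.10 (SE 0.107, adjusted p 0.534). The count of 3 was 1 without sham 3 or VSG 6 and 2 without sham 2 or VSG 4, and it was 7 without VSG 5. It was 6 under DESeq2, 5 with no filter beyond 1 count and 2 with total counts or with a minimum of 10 counts in every library.

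Among genes of the HDL particle, on which serum amyloid A travels, 2 of 15 tested rose and 2 fell. Of all tested genes, 6.79% were higher and 7.87% lower. Apoa4, an apolipoprotein of lipid transport, was at 2696, 2522 and 4455 CPM in sham 1, 2 and 3 and at 326, 322 and 239 CPM in VSG 4, 5 and 6 (log2 fold change -3.45, SE 0.309, adjusted p 0.00389), past the threshold in all 12 alternatives. Lipg, the endothelial lipase that hydrolyses HDL phospholipids, fell by 2.06 (adjusted p 0.0240). Apom, which carries sphingosine 1-phosphate in HDL, rose by 1.10 (adjusted p 0.0167) and Abca1, the transporter that loads cholesterol onto apolipoproteins, by 1.14 (adjusted p 0.0274). Apoa1, the main protein of HDL, was at 3905, 5927 and 4023 CPM in sham 1, 2 and 3 and at 3683, 5170 and 6127 CPM in VSG 4, 5 and 6. Its groups overlapped (log2 fold change 0.11, SE 0.303, adjusted p 0.813), and the sign was negative with total counts (-0.01), without sham 1 and without VSG 6 (-0.06). The count of 4 was 1 without sham 3 or VSG 6, 3 without sham 1 or sham 2 and 6 without VSG 5. It was 7 under DESeq2 and 6 with total counts.

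Of the 5 genes of retinol transport that were tested, only Lrp1 passed the threshold, where 14.7% of all tested genes did in either direction. This receptor takes up retinol carried by serum amyloid A, and it was at 1229, 1121 and 1047 CPM in sham 1, 2 and 3 and at 2015, 2299 and 2340 CPM in VSG 4, 5 and 6 (log2 fold change 0.97, SE 0.175, adjusted p 0.0201). The call was lost without sham 2, sham 3 or VSG 6, with adjusted p-values of 0.0597, 0.113 and 0.0843, and without VSG 4 or VSG 5 the list had 2 calls. Of 9 amyloid partners and proteases, 1 rose, where 6.79% of all tested genes did, and none fell. Under DESeq2 or without VSG 5 there were 2 higher and 1 lower in this list. Apcs, which encodes serum amyloid P, the pentraxin that binds amyloid fibrils and is itself an acute phase protein in mice, was at 87.0, 103 and 86.5 CPM in sham 1, 2 and 3 and at 2212, 727 and 1559 CPM in VSG 4, 5 and 6. The VSG libraries stood in the order of Saa1 and Saa2, far above all sham libraries (log2 fold change 4.02, SE 0.427, adjusted p 0.00645), and the call held in all 12 alternatives.

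The other positive acute phase proteins were the list in which most genes rose, 18 of 20 tested, where 6.79% of all tested genes did. The median log2 fold change of the list was 2.34. The 3 fibrinogen chains had close values of 2.36 (Fga), 2.36 (Fgb) and 2.32 (Fgg), with adjusted p-values between 0.00721 and 0.00914. Fgg stood at 2287, 2194 and 1900 CPM in sham 1, 2 and 3 and at 11920, 8949 and 11100 CPM in VSG 4, 5 and 6, so that VSG 5 was again lowest but less far from the others than for Saa1. Itih3 and Itih4, which encode heavy chains of the inter-alpha-trypsin inhibitor family, had log2 fold changes of 2.54 and 1.69, and Lbp, the lipopolysaccharide binding protein, one of 1.66 (adjusted p 0.0155). The VSG libraries stood in the order of Saa1 (VSG 4, 6, 5) for 14 of the 20 genes, where 24.9% of all tested genes had that order. The count of 18 was 0 without sham 3, 3 without VSG 6, 6 without sham 2, 9 without sham 1 and 12 without VSG 4. Without sham 3 the adjusted p-values of the fibrinogen chains were 0.0708, 0.0612 and 0.0565. Of the 10 negative acute phase proteins, whose levels fall in blood during inflammation, none fell past the threshold by edgeR (2 were lower at an unadjusted p under 0.05), where 7.87% of all tested genes did. In this list, 1 gene rose, Fetub, a fetuin (log2 fold change 1.495, adjusted p 0.0191), a call lost without sham 3 (0.0995) or VSG 6 (0.0770). By DESeq2 3 genes of this list were higher and 2 lower, and without VSG 5 there were 2 higher and 1 lower.

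The genes around the cluster were examined to see how far the difference reached along the chromosome. Within 250 kb on either side, 22 other genes are annotated, of which 7 had enough counts to be tested. Saal1, which lies next to Saa3 and which encodes serum amyloid A-like 1, had 164, 144 and 161 counts in sham 1, 2 and 3 and 182, 160 and 155 counts in VSG 4, 5 and 6 (log2 fold change 0.26, SE 0.138, adjusted p 0.227). Hps5 and Gtf2h1, beyond Saa2, had log2 fold changes of -0.01 (SE 0.116) and 0.02 (SE 0.0946), and Ldha, the lactate dehydrogenase A gene, one of 0.38 (adjusted p 0.142). One gene passed the threshold, Uevld, which was chosen for mention after its values were seen. It was lower after VSG (log2 fold change -0.56, SE 0.125, adjusted p 0.0330), and no neighbour passed without sham 1, sham 2, sham 3, VSG 4 or VSG 6. The log2 fold changes of all 7 lay between -0.56 and 0.54, against 1.84 or more for the serum amyloid A genes.

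**Figure D5:**
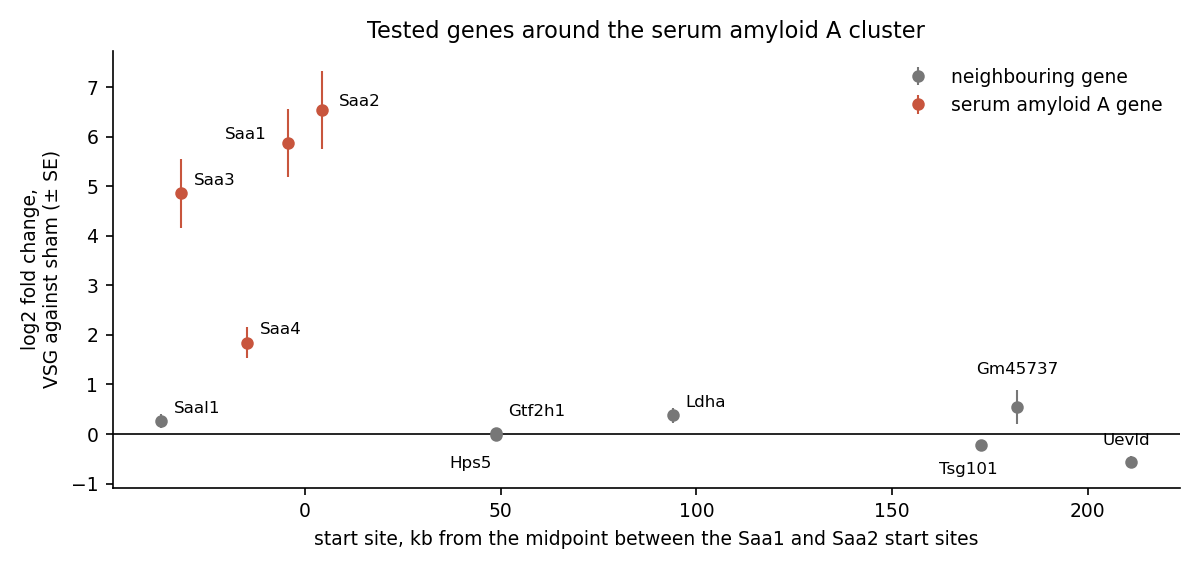
Log2 fold change (VSG against sham, with its standard error) of the tested genes on chromosome 7 within 250 kb of the cluster, against the distance of each start site in kb from the midpoint between the Saa1 and Saa2 start sites. The 4 serum amyloid A genes lie at 1.84 and above, and the 7 tested neighbours between -0.56 and 0.54.

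Genes whose pattern over the 6 libraries was most like that of each member were listed by Pearson's r of log2 CPM among 9960 genes with a mean of at least 5 CPM. The 5 most alike genes were the same for Saa1 and Saa2: Wtap, Gm30097, Mrc1, Ripk1 and Dnajc13, with r from 0.996 to 0.999. Wtap, a subunit of the RNA methyltransferase complex, was at 23.8, 22.1 and 23.2 CPM in sham 1, 2 and 3 and at 32.5, 28.7 and 32.0 CPM in VSG 4, 5 and 6, a far smaller difference in the same order of libraries. Mrc1, the macrophage mannose receptor, was at 80.3, 74.8 and 78.2 CPM and 123, 102 and 117 CPM. For Saa3 they were Ell, Mmp9, Smad1, Pan3 and Rlim. Mmp9, a matrix metalloproteinase of neutrophils and macrophages, was the one with a difference as large as that of Saa3, from 1.14, 0.867 and 0.493 CPM in sham 1, 2 and 3 to 45.2, 7.52 and 18.2 CPM in VSG 4, 5 and 6. For Saa4 they were Exosc1, Metap1d, Brd1, Cd163, the haptoglobin and hemoglobin receptor of macrophages, and Crp, the C-reactive protein gene. All 5 followed Saa4 in having VSG 6 as the highest library and sham 2 as the highest of the sham group. They were picked for their likeness to Saa4, so nothing is read from this. The r values describe 6 libraries that share a group difference, were picked as the highest of many, and carry no test.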

How the data were processed

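Liver poly(A) RNA of 3 sham and 3 VSG mice was measured. Per the labels and the study's methods, the authors checked reads with FastQC 0.10.1, aligned them to mm10 with STAR 2.6.0 and deposited raw read counts per gene from featureCounts (2.0.3 per the labels), with each gene's summed exon length. The annotation release, strand option and treatment of reads fitting several places were not given in the sources used here, so near-identical and overlapping genes are uncertain. Identifiers of 55144 of 55385 genes were matched to GENCODE M21 without version.

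Counts were tested in R 4.3.3 with edgeR 4.0.16 (filterByExpr with minimum count 10 and minimum total 15, TMM, group as the only term, quasi-likelihood test, Benjamini-Hochberg over 14454 genes), after a run on simulated data. SE is the log2 fold change divided by the square root of F. CPM used TMM factors (0.897 to 1.15). A floor of 3 counts equals 0.124 to 0.132 CPM and covers counting error only. Libraries of a group differed by far more than counting noise (chi-square per degree of freedom at least 25.2). Promoter windows and alignments used Biopython 1.88 (match 1, mismatch -1, gap -3, extension -1).

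The members and lists were chosen with earlier results of these data known. Named were the members, called genes of each list (at most the 6 with the smallest p) and the step-defining genes, and the 5 most alike genes per member. Alternatives were DESeq2 1.42.0, limma-voom (limma 3.58.1), RLE size factors, total counts, a minimum of 1 count in all, a minimum of 10 in each library, each library left out, Saa1 and Saa2 summed, and means of log2(FPKM + 1). Protein sequences were not analysed here, and 1 gene that the naming rule covers is not reported here by name. Most listed genes outside that rule were only counted.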

Additional observations from a re-analysis of the deposited data

How the results depend on the processing

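The log2 fold changes of the 4 serum amyloid A genes moved by less than 1 SD (of log2 CPM, pooled within the groups) under every alternative run, from 5.45 to 6.26 for Saa1, 6.01 to 6.96 for Saa2, 3.94 to 5.25 for Saa3 and 1.59 to 2.10 for Saa4. The count of 2118 genes was 3288 with DESeq2, and from 159 to 2732 with 1 library left out. The count of 37 pathway genes ran from 3 to 54 with 1 library left out, and that of 1 neighbour in the cluster from 0 to 1. Leaving out a library also leaves fewer samples for the fit. Of the 35 pathway genes named with a test, 25 were past the threshold, and 3 of these (Apcs, Apoa4 and Cd36) were past it in every alternative. Signs turned for genes that were not past the threshold: Apoa1 with total counts (-0.0111) and with 1 library left out (from -0.0601 to 0.33), Rela with total counts (-0.12), with no filter beyond 1 count (-0.015) and with 1 library left out (from -0.0494 to 0.0765), Cebpb (from -0.74 to 0.12) and Cebpd (from -0.29 to 0.52) with 1 library left out. The cause was not tested. No paired analysis was possible because the sham and VSG libraries share no replicate number. Low counts kept 8 of the 112 pathway genes out of the test.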
